A study of Homo sapiens with 6 samples.

Results

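The genes described here are the translation elongation factors and their close partners: EEF1A1, EEF1A2, EEF1B2, EEF1D, EEF1G, EEF1E1, EEF2, EEF2K, TPT1 and TUFM. They were chosen by gene name, 10 of the 57819 genes in the deposited table, and the difference between the groups was known when they were chosen. For that reason their values are given as a description without p-values. RNA came from IMR90 ER:Ras cells, an established line of human lung fibroblasts that carries a Ras oncogene fused to an oestrogen receptor domain. In all 6 libraries the cells had 200 nM 4-hydroxytamoxifen (4OHT), which switches this Ras on and drives the cells into senescence, for 3 days. Cells of 3 control libraries received a scrambled siRNA (siSCR), and cells of 3 knockdown libraries received an siRNA that targets sin-lncRNA, a long noncoding RNA. The labels number the libraries of a group as replicates but do not say that they were separate cultures, so p-values and SDs measure only the spread between these libraries. The question of the comparison was what loss of this lncRNA changes in senescent cells.

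Elongation is the step of protein synthesis in which the ribosome reads one codon after another. The factor eEF1A (from EEF1A1 or, mainly in neurons and muscle, EEF1A2) brings aminoacyl-tRNA to the ribosome with GTP, and the eEF1B complex (from EEF1B2, EEF1D and EEF1G) recharges it by exchanging GDP for GTP. The factor eEF2 then moves the ribosome along the mRNA, and its kinase, from EEF2K, stops it by phosphorylation. EEF1E1 codes for a scaffold protein of the multisynthetase complex, in which several aminoacyl-tRNA synthetases are held together. TPT1 codes for the translationally controlled tumour protein, which binds eEF1A and its exchange factor, and TUFM for the eEF1A counterpart of mitochondria.

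Reads in genes numbered 30271192 to 50913672 in the control libraries and 22117324 to 27882280 in the knockdown libraries, with all knockdown libraries below the lowest control. A count of 0 allows up to 3 reads, which is 0.0596 to 0.134 RPM depending on the library, for counting error alone. RPM are the reads recovered from the table, scaled to library size as CPM are. The targeted lncRNA, listed as RP4-530I15.6 (ENSG00000234693.1), went from 4.17 ± 0.519 RPM in controls to 0.556 ± 0.0760 in knockdowns (SD, n = 3), a log2 difference of -2.86 (SE 0.18; limma, Benjamini-Hochberg adjusted p = 7.9e-07). All 8 fibroblast markers examined were at 1 RPM or more, and their summed level was 15190 to 16370 RPM in controls and 10690 to 11120 RPM in knockdowns. Of these 8 markers, 3 were called higher and 5 lower. Summed epithelial markers stood at 4.196 to 6.67 and 2.02 to 2.74 RPM (1 of 5 at 1 RPM or more, KRT5 at 0 reads), endothelial markers at 1.70 to 1.90 and 2.29 to 2.71 RPM (3 of 4 matched), and leukocyte markers at 0.159 to 0.264 and 0.128 to 0.321 RPM. Depth and the fibroblast, epithelial and endothelial sums moved with the groups, and their part in the results that follow was not tested.

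Of the 10 genes, 9 had enough reads to be tested (an average of 10 or more after normalization), and 6 of these 9 were called lower in knockdowns and 0 higher. Called means a Benjamini-Hochberg adjusted p under 0.05 in limma over 19048 genes. Over all genes tested, 23.5% were called lower and 17.5% were called higher. The same 6 genes, EEF1A1, EEF1A2, EEF1B2, EEF1E1, EEF2 and TUFM, had all knockdown libraries below all controls, as did 28.5% of all genes tested. Nothing is read from this count, because the genes were chosen with this contrast known. In these bulk libraries, fewer cells that make an RNA and less of it per cell cannot be told apart.

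**Figure D1:**
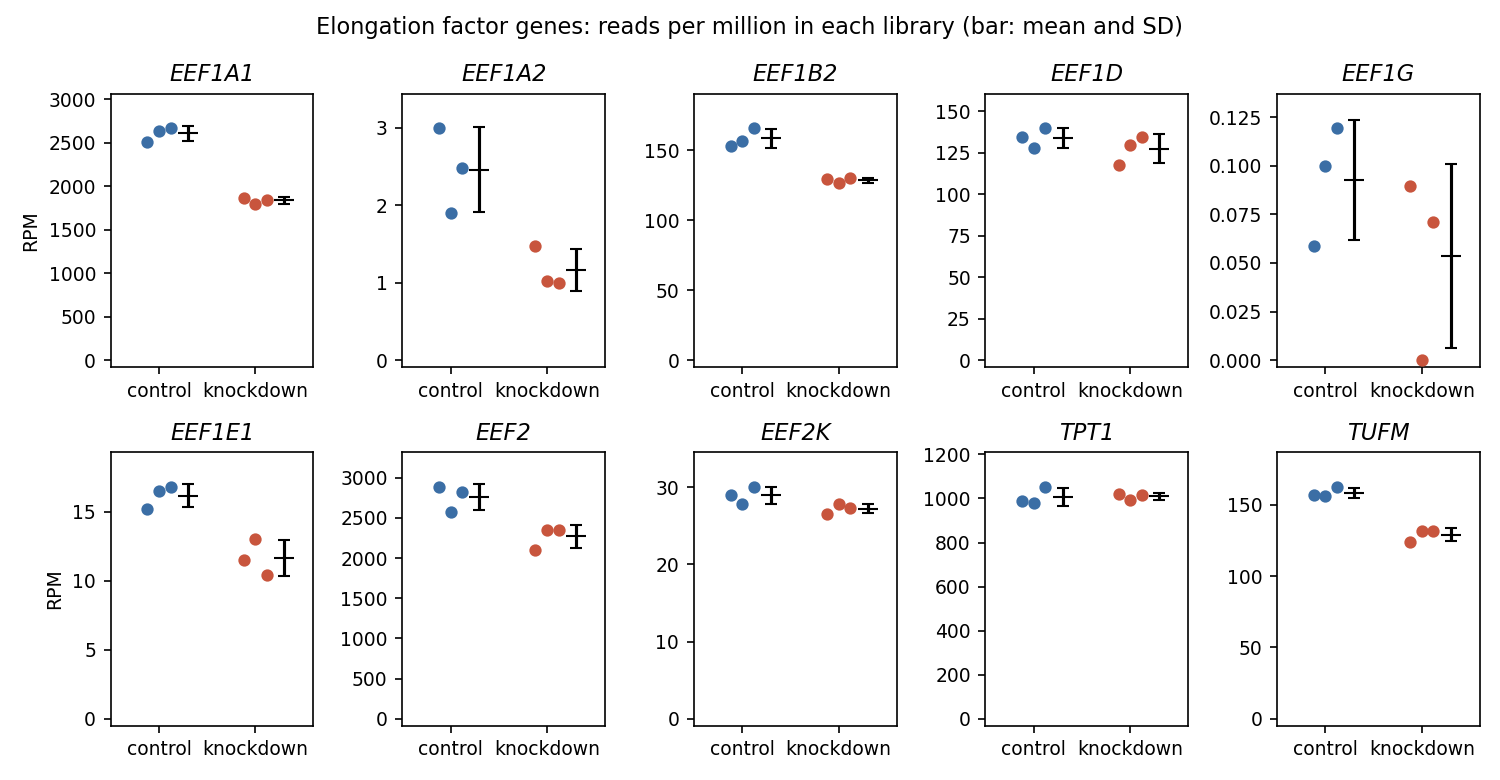
Level of each elongation factor gene in RPM (linear axis from 0, its own scale in each panel) in the 3 control (blue) and 3 knockdown (red) libraries, each point 1 library in replicate order, with the mean and SD beside them. The groups are separate for EEF1A1, EEF1A2, EEF1B2, EEF1E1, EEF2 and TUFM and overlap for EEF1D, EEF1G, EEF2K and TPT1.

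EEF1A1 (ENSG00000156508.13, chr6:74225473-74233520, minus strand, hg19) codes for the main form of eEF1A, one of the most abundant proteins of a cell. Its level was 2512, 2639 and 2665 RPM in the controls and 1866, 1796 and 1844 RPM in the knockdowns. The 3 knockdown libraries lay close together and well below the lowest control. The mean went from 2605 ± 82.0 to 1835 ± 35.5 RPM (SD, n = 3), or 70.5% of control, a log2 difference of -0.505 (SE 0.042).

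Coding reads of EEF1A1 can seldom be assigned to it alone, because processed copies of its mRNA lie across the genome as pseudogenes. Libraries were read as single 50-base reads, and of the 1340 windows of 50 bases in the EEF1A1 coding sequence, 1263 (94.3%) occur unchanged in a gene named as an EEF1A1 copy. Over its whole matched transcript of 4441 bases, with the untranslated parts, 1266 of 4392 windows (28.8%) do. The nearest copies differ from EEF1A1 at few of its 1389 coding bases: EEF1A1P5 (chr9:135894816-135896553, hg19) at 4, EEF1A1P6 (chr7:22550231-22551618) at 7 of 1384 aligned bases, and EEF1A1P13 (chr5:14652047-14653438) at 26 of 1386. The second eEF1A gene, EEF1A2, differs at 303 bases (78.2% identity) and shares none of its 1343 coding windows with any other gene. The same stretch of 100 coding bases, from 195 to 294 of the EEF1A1 coding sequence counted from the A of the start codon, shows how alike reads from these genes are. Capitals mark bases that differ from EEF1A1 (sequences from GENCODE 29, GRCh38, written 5′ to 3′ in the direction of EEF1A1).
EEF1A1: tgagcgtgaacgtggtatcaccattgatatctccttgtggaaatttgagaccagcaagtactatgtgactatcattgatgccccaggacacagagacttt
EEF1A1P5: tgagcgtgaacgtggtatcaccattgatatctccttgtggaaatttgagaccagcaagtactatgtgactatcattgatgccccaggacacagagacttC
EEF1A1P6: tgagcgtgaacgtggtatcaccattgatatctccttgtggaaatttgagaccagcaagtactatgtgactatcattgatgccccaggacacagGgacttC
EEF1A1P13: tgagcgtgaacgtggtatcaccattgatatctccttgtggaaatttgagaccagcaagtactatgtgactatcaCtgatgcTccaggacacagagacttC
EEF1A2: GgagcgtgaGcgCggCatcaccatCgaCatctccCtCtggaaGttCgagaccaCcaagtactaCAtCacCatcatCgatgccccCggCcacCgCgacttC

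In this stretch EEF1A1P5 carries 1 substitution (T294C), EEF1A1P6 carries 2 (A288G and T294C) and EEF1A1P13 carries 3 (T269C, C276T and T294C), with the EEF1A1 base first and the copy's base last. EEF1A2 carries 21. A 50-base read from the first part of the stretch is therefore identical in EEF1A1 and these 3 copies and different in EEF1A2.

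The table lists 48 EEF1A1 pseudogenes, of which 7 had no reads and 26 had enough to be tested. Of these 26, 24 were called lower and 0 higher, beside 23.5% and 17.5% of all genes tested. The differences ran from -0.91 to -0.17 with a median of -0.45, where the median of all genes tested was -0.039. The 2 that were not called were EEF1A1P1 and EEF1A1P17, at 3.94 ± 0.269 and 4.09 ± 0.384 RPM in controls. How the counting placed reads that match several copies is not given in the sources used here, so these counts may share reads with EEF1A1 and are not taken as independent of it. Among the 26 tested copies, the share of a copy's windows found in EEF1A1 ran from 85.1% for EEF1A1P5 down to 0.156%. It was 0.163% for EEF1A1P17.

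The deepest copy, EEF1A1P5, had almost as many reads as EEF1A1 itself: 2485, 2606 and 2598 RPM in controls and a mean of 1894 ± 36.2 RPM in knockdowns (SD, n = 3), a log2 difference of -0.44 (SE 0.041). EEF1A1P6 went from 1654 ± 83.3 to 1157 ± 27.4 RPM, a difference of -0.51 (SE 0.046). The 3 next by level, EEF1A1P13, EEF1A1P11 and EEF1A1P19, had control means of 661 ± 13.1, 521.7 ± 13.6 and 394.7 ± 19.3 RPM and differences of -0.44, -0.46 and -0.54. Among these 5 the level was higher where more of the copy matches EEF1A1: 85.1% of the windows of EEF1A1P5 occur in EEF1A1, 74.3% of those of EEF1A1P6 and 21.3% of those of EEF1A1P19.

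**Figure D2:**
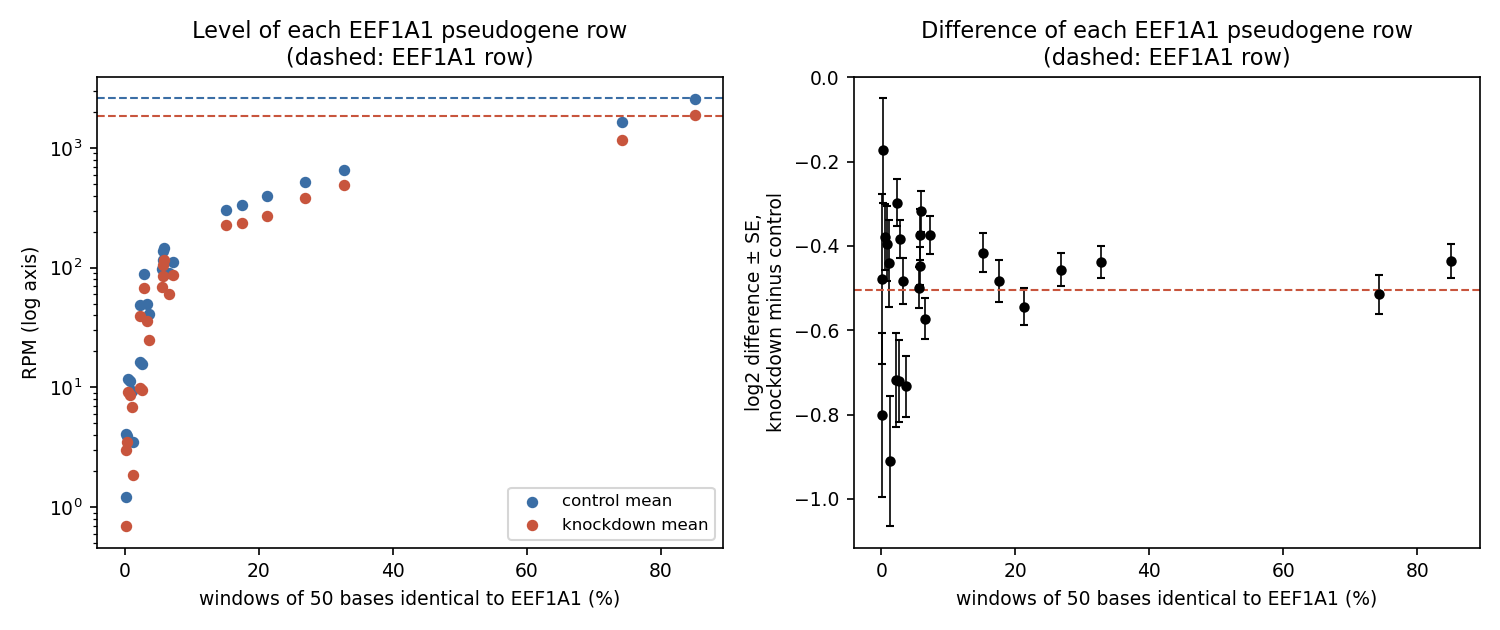
The 26 tested EEF1A1 pseudogenes, with the percent of their 50-base windows that occur in EEF1A1 on the horizontal axes; the left panel gives the mean level in RPM (log axis) in controls (blue) and knockdowns (red), the right panel the log2 difference, knockdown minus control, with its SE. Dashed lines are EEF1A1 itself. The 7 copies with over 10% of their windows in EEF1A1 have the 7 highest levels, and all 26 differences are below 0, from -0.91 to -0.17.

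EEF1A1 and its copies together held 0.998% ± 0.0298 of all reads in genes in controls and 0.729% ± 0.0144 in knockdowns (SD, n = 3). Since the multi-mapping setting is not given in the sources used here, these sums may count the same read at several copies. Within this family total, EEF1A1 took 26.1%, 25.8% and 26.0% in the controls and 25.4%, 25.3% and 25.4% in the knockdowns. EEF1A1P5 took 25.8%, 25.4% and 25.4% in the controls and 26.2%, 26.1% and 26.2% in the knockdowns. The family total was thus lower in every knockdown library, while the split among its genes moved by less than 1 percentage point for these 2 genes.

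EEF1A2 (ENSG00000101210.6, chr20:62119366-62130505, minus strand) codes for the form of eEF1A that is best known from neurons and muscle. It was at 3.00, 1.90 and 2.48 RPM in controls and 1.48, 1.03 and 0.997 RPM in knockdowns, on 57 to 125 and 24 to 33 reads per library. The highest knockdown library was below the lowest control. The mean went from 2.46 ± 0.549 to 1.17 ± 0.271 RPM (SD, n = 3), 47.5% of control, a log2 difference of -1.06 (SE 0.22). With 5 RPM added before taking logs the difference was -0.27, still called, since that offset is larger than the gene's level.

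The amount of EEF1A2 relative to EEF1A1 was small in every library. Per 1000 reads of EEF1A1 there were 1.19, 0.719 and 0.932 reads of EEF1A2 in controls and 0.793, 0.570 and 0.541 in knockdowns. Control replicate 2 lay below knockdown replicate 1, so the groups overlapped in this ratio.

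EEF1B2 (ENSG00000114942.9, chr2:207024309-207027652, plus strand) codes for a subunit of eEF1B that exchanges the nucleotide on eEF1A. It was at 153, 157 and 165.5 RPM in controls and 129.2, 126.5 and 129.7 RPM in knockdowns. The knockdown libraries differed from each other by little and all lay below the controls. The mean went from 158 ± 6.62 to 128.5 ± 1.70 RPM, 81.2% of control, a log2 difference of -0.30 (SE 0.044). Of its 629 coding windows, 472 (75.0%) occur in a named copy, and the copy with the most reads, EEF1B2P3, went from 141.5 ± 5.02 to 112.6 ± 1.78 RPM (SD, n = 3). Of 8 EEF1B2 pseudogenes, 5 were tested and 4 were called lower, with a median of -0.32.

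EEF1D (ENSG00000104529.13, chr8:144661867-144681711, minus strand) codes for the second exchange subunit of eEF1B, and it did not share the pattern of EEF1B2. It was at 134, 127.5 and 139.6 RPM in controls and 117.5, 129.7 and 134.5 RPM in knockdowns. Knockdown replicates 2 and 3 lay within the range of the controls. The difference of -0.073 (SE 0.057) was not called. Of 8 EEF1D pseudogenes 3 were tested and 1 was called lower, and the one with the most reads, EEF1DP1, went from 50.9 ± 2.38 to 45.5 ± 3.84 RPM (SD, n = 3) and was not called. TIGD5, on the opposite strand, overlaps it over 1638 bases (8.25% of its span), and since the strand setting of the counting is not given in the sources used here, reads there are uncertain.

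EEF1G (ENSG00000254772.5, chr11:62327073-62342401, minus strand) codes for the subunit that holds the eEF1B complex together. It had 2, 3 and 6 reads in controls and 2, 0 and 2 in knockdowns, too few to test, and no fold is given. Another gene on the same strand of the table covers 99.99% of its span, listed as MIR3654 (ENSG00000255508.3, typed as protein coding), and in GENCODE 29 that gene shares 2714 of the 2716 exon bases of EEF1G. All 1265 coding windows of EEF1G (100%) occur in another gene. A low count at such a place does not measure how much EEF1G RNA the cells held. The MIR3654 entry itself had 31, 32 and 57 reads in controls and 26, 33 and 33 in knockdowns, 1.04 ± 0.114 and 1.25 ± 0.138 RPM. Its copy with the most reads, EEF1GP1, was at 10.9 ± 0.973 and 10.5 ± 1.03 RPM, and 0 of the 3 tested EEF1G pseudogenes were called.

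EEF1E1 (ENSG00000124802.7, chr6:8073593-8102811, minus strand) was at 15.2, 16.5 and 16.8 RPM in controls and 11.5, 13.0 and 10.4 RPM in knockdowns. No knockdown library reached the lowest control. The mean went from 16.2 ± 0.843 to 11.7 ± 1.297 RPM (SD, n = 3), 72.1% of control, a log2 difference of -0.475 (SE 0.089). A readthrough gene that joins EEF1E1 to BLOC1S5 covers 99.84% of its span on the same strand. Of the 476 EEF1E1 coding windows, 340 (71.4%) occur in another gene, so the count of EEF1E1 and its level per length are uncertain. The single EEF1E1 copy, listed as AC104651.1 (now EEF1E1P1), went from 2.89 ± 0.400 to 1.78 ± 0.334 RPM and was called lower.

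EEF2 (ENSG00000167658.11, chr19:3976054-3985467, minus strand) codes for the factor that drives translocation. It was at 2888, 2574 and 2824 RPM in controls and 2106, 2356 and 2349 RPM in knockdowns. Control replicate 2 was the lowest control, and it was still above every knockdown library. The mean went from 2762 ± 165.7 to 2270.0 ± 142.4 RPM (SD, n = 3), 82.2% of control, a log2 difference of -0.28 (SE 0.059). None of its 2528 coding windows occurs unchanged in another annotated gene (0%). Matches with mismatches or outside annotated genes were not looked for, so this does not show that all its reads are its own.

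EEF2K (ENSG00000103319.7, chr16:22217603-22298554, plus strand), the gene of the kinase that inhibits eEF2, was at 28.99, 27.77 and 30.04 RPM in controls and 26.58, 27.79 and 27.25 RPM in knockdowns. Knockdown replicate 2 stood just above control replicate 2, so the groups overlapped. The difference of -0.088 (SE 0.056) was not called. Of its 2129 coding windows 0 occur unchanged in another annotated gene, and over its whole transcript 783 of 7339 (10.7%) do. For EEF2 the number over the whole transcript is 0 of 3115.

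TPT1 (ENSG00000133112.12, chr13:45911008-45915505, minus strand) was at 989, 979.6 and 1053 RPM in controls and 1022, 992 and 1014 RPM in knockdowns. All 3 knockdown libraries lay within the range of the controls. The means were 1007 ± 39.9 and 1009 ± 15.6 RPM (SD, n = 3), a difference of 0.0037 (SE 0.042). Of its 15 pseudogenes 10 were tested, 2 were called lower and 0 higher, with a median of -0.040. The copy with the most reads, listed as RP11-442A13.1 (now TPT1P9), was at 235.4 ± 18.6 and 221.4 ± 7.31 RPM and was not called.

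Antisense genes overlap TPT1 on the opposite strand, RP11-290D2.6 over 1145 bases (25.46% of the span of TPT1) and TPT1-AS1 over 26 bases. Reads there are uncertain without the strand setting. Of the 470 TPT1 coding windows, 159 (33.8%) occur in another gene, 65 of them in a named copy. TPT1-AS1 is named here after its values were seen. It was at 41.5, 37.5 and 37.7 RPM in controls and 56.7, 56.2 and 48.98 RPM in knockdowns. Every knockdown library was above every control. Its log2 difference was 0.47 (SE 0.068), given as a description.

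TUFM (ENSG00000178952.4, chr16:28853732-28857729, minus strand), which codes for the mitochondrial elongation factor Tu, was at 157, 156 and 163 RPM in controls and 124, 132 and 132 RPM in knockdowns. The groups did not overlap. The mean went from 158 ± 3.77 to 129.2 ± 4.61 RPM (SD, n = 3), 81.5% of control, a log2 difference of -0.29 (SE 0.044). Its copy TUFMP1 went from 22.8 ± 1.14 to 17.9 ± 2.10 RPM and was called lower, and 27 of the 1319 TUFM coding windows (2.05%) occur in that copy.

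**Figure D3:**
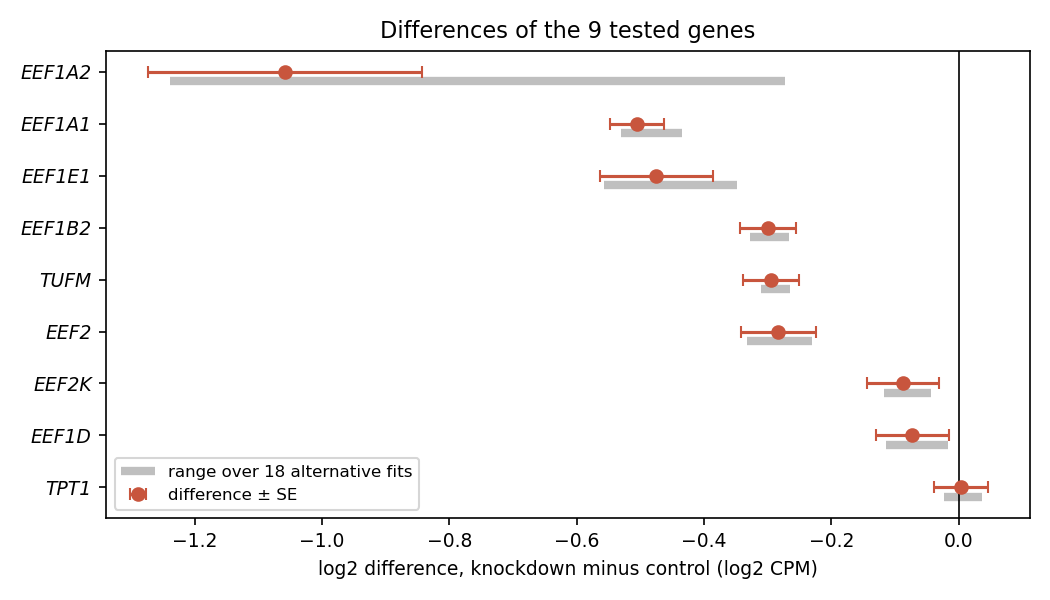
Log2 difference, knockdown minus control, of the 9 tested elongation factor genes (points, with SE) and its range over 18 alternative fits (grey bars). EEF1A2 has the widest bar, from -1.24 to -0.27; the points of EEF2K, EEF1D and TPT1 lie within 0.1 of 0.

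Leaving out EEF1G, whose few reads do not measure its level, the genes spanned a wide range of levels per length. On the scale of RPM per kilobase of exon sequence, EEF2 was first in controls with 685.9 ± 41.2, followed by EEF1A1 with 438.0 ± 13.8, TPT1 with 138.5 ± 5.49, EEF1B2 with 82.6 ± 3.46 and TUFM with 69.8 ± 1.66 (SD, n = 3). Lower on the same scale were EEF1D with 14.2 ± 0.646, EEF1E1 with 7.67 ± 0.400, EEF2K with 3.61 ± 0.142 and EEF1A2 with 0.501 ± 0.112. On this scale no neighbours in the order overlapped between libraries, in controls or in knockdowns, and the order was the same in knockdowns. EEF2 stood at 563.7 ± 35.4 and EEF1A1 at 308.6 ± 5.96 RPM per kilobase in knockdowns. The order was also the same with the length of the transcript matched to RefSeq, but the gap between TUFM and EEF1D was not. EEF1D has an exon union of 9390 bases and a matched transcript of 2207, and per kilobase of the latter it was at 60.6 ± 2.75 RPM against 76.5 ± 1.82 for TUFM in controls. In knockdowns the same values were 57.7 ± 3.99 and 62.4 ± 2.22, and the libraries overlapped. The EEF1A2 value also rests on the length, at 1.22 ± 0.273 RPM per kilobase of its matched transcript in controls. So does the TPT1 value. The TPT1 exon union of 7269 bases and matched transcript of 4735 are both longer than the hg19 span over which TPT1 was counted. Its values per kilobase are therefore too low, and its place in the order is uncertain.

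The place of EEF1A1 in that order rests on how copies are counted and on the length used. Without length, EEF2 and EEF1A1 overlapped in controls, at 2762 ± 165.7 and 2605 ± 82.0 RPM, and were separate in knockdowns. With the reads of copies added to each gene, EEF1A1 was first, at 1688 ± 59.2 RPM per kilobase in controls and 1217 ± 21.5 in knockdowns, against the same 685.9 ± 41.2 and 563.7 ± 35.4 for EEF2. In that sum TPT1 and EEF1B2 overlapped in controls, at 218.8 ± 8.51 and 207.8 ± 9.74. The 10 genes and their 89 named pseudogenes together held 1.51% ± 0.0273 of all reads in genes in controls and 1.185% ± 0.0129 in knockdowns. If a read was counted at each copy it matches, these sums, and the first place of EEF1A1 in them, hold it more than once.

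Many mRNAs of the translation apparatus begin with a C followed by a run of pyrimidines, the 5′-terminal oligopyrimidine tract, through which mTOR signalling is known to set their translation. The start sites of 8 of the genes were found in RefSeq's annotation (GRCh38.p14), and windows of 10 bases before and 20 bases from the start were read for a C at the first base followed by at least 4 C or T, on the strand of the gene. EEF1A1, EEF1B2, EEF2 and TPT1 had such a start, shown with the run in capitals.
EEF1A1, chr6:73521013-73521042, minus strand: cgtgaacgttCTTTTTCgcaacgggtttgc
EEF1B2, chr2:206159885-206159914, plus strand: ctcttcgggtCCTTTTTCCTCTCTTCagcg
EEF2, chr19:3985444-3985473, minus strand: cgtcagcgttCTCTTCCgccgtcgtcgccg
TPT1, chr13:45341164-45341193, minus strand: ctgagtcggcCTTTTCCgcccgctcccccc

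The other 4 matched genes, EEF1E1, EEF1G, EEF2K and TUFM, did not have these letters at the annotated start, of which TUFM serves as the example.
TUFM, chr16:28846329-28846358, minus strand: cgccggaagtgccttccagccgcaggcgcc

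EEF1B2 has a second annotated start without the run. Such a start was found in 4.07% of the 35116 start sites in the annotation, in 5.14% of the 27305 genes, and in 47 of 63 matched ribosomal protein genes (74.6%). Genes with the run included EEF1A1, EEF1B2 and EEF2, which were lower in knockdowns, and TPT1, which stayed within the controls. Genes without it included EEF1E1 and TUFM, which were lower, and EEF2K, which overlapped the controls.

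Lists of other genes of protein synthesis gave the surroundings of these genes. The lists were drawn from general knowledge, with earlier results of these data known, so their counts and adjusted p-values are a description. Over all genes tested, 17.5% were called higher and 23.5% lower. One list held 21 tested genes for other elongation factors and for enzymes that modify eEF1A, eEF2 or eIF5A. Of these, 3 were called higher (14.3%) and 9 lower (42.9%), with a median difference of -0.16 against -0.039 for all genes tested. EIF5A, the factor that helps ribosomes past proline-rich stretches, fell from 360.8 ± 9.91 to 215.2 ± 5.61 RPM (SD, n = 3), a difference of -0.75 (SE 0.041; limma adjusted p = 4.5e-07), and it too has pseudogenes that can share its reads. METTL21B (now EEF1AKMT3), a lysine methyltransferase of eEF1A, fell from 8.07 ± 0.370 to 5.73 ± 0.469 RPM (limma adjusted p = 0.0018). The rises were smaller: SECISBP2, which binds the selenocysteine element, by 0.20 (limma adjusted p = 0.0095), and DPH3, of the pathway that makes diphthamide on eEF2, by 0.18 (limma adjusted p = 0.018). Without control replicate 3 the number called lower was 5.

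Of 11 factors of mitochondrial translation besides TUFM, 1 was called lower (9.1%, beside 23.5% of all genes tested) and 0 higher, with a median of -0.10. The one that fell was TSFM, which codes for the exchange factor of TUFM, from 18.02 ± 0.856 to 14.8 ± 0.676 RPM (SD, n = 3; limma adjusted p = 0.0074). The number called lower was 3 without knockdown replicate 1, and 2 when control 1, control 2 or knockdown 2 was left out. With quantile normalization 1 was called higher.

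Of 43 tested initiation factors and regulators, 2 were called higher (4.7%) and 16 lower (37.2%), beside 17.5% and 23.5% of all genes tested. The median was -0.040, next to the -0.039 of all genes tested. EIF2B3, a subunit of the exchange factor of eIF2, fell by 0.54 on the log2 scale (SE 0.054; limma adjusted p = 2.3e-05), and EIF4G2, a relative of the scaffold eIF4G, fell from 1387 ± 31.0 to 972 ± 46.1 RPM (limma adjusted p = 8.9e-06). EIF4E3, a cap-binding protein, rose by 0.76 from 2.34 ± 0.627 to 3.89 ± 0.371 RPM (limma adjusted p = 0.0079), and EIF2B5, another subunit of the same exchange factor, rose by 0.20 (limma adjusted p = 0.032). The number called higher was 1 without control replicate 1 or without knockdown replicate 3. It was 6 when values were scaled by library totals and 7 with quantile normalization.

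Of 8 genes of termination, rescue and recycling, 2 were called higher (25.0%) and 1 lower (12.5%), with a median of 0.0063. The shares of all genes tested were 17.5% and 23.5%. ETF1, the release factor, fell by 0.22 (limma adjusted p = 0.0057), while NEMF and HBS1L, which act on stalled ribosomes, rose by 0.19 (limma adjusted p = 0.011) and 0.16 (limma adjusted p = 0.031). With knockdown replicate 3 left out, 0 genes of this list were called higher. The number was 1 when control 1, control 3 or knockdown 1 was left out, and 2 were called lower without knockdown replicate 1.

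Of 11 genes that regulate EEF2K or reverse its action, 2 were called higher (18.2%) and 5 lower (45.5%), with a median of -0.11. Over all genes tested, the shares were 17.5% and 23.5%. The S6 kinases, which phosphorylate and inhibit the EEF2K protein, went opposite ways: RPS6KB1 rose from 42.9 ± 1.39 to 50.6 ± 0.1004 RPM (SD, n = 3; limma adjusted p = 0.0026) and RPS6KB2 fell from 26.3 ± 0.614 to 20.3 ± 1.10 RPM (limma adjusted p = 0.00069). PRKAA2, a catalytic subunit of the energy sensor AMPK, fell by 0.42 (limma adjusted p = 0.027). PPP2CB, a catalytic subunit of the phosphatase PP2A, rose by 0.14 (limma adjusted p = 0.038). With any of 5 libraries left out in turn (controls 1, 2 or 3, knockdowns 2 or 3), 1 gene of this list was called higher.

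Of the other 10 genes of the multisynthetase complex, which EEF1E1 belongs to, 0 were called higher and 3 lower, with a median of -0.066. The share called lower was 30.0%, beside 23.5% of all genes tested. One of the 3, KARS (now KARS1), the lysyl-tRNA synthetase, fell from 149.1 ± 5.70 to 126.5 ± 6.24 RPM (SD, n = 3), a difference of -0.24 (limma adjusted p = 0.0032). The scaffold genes AIMP1 and AIMP2 were not called, with differences of -0.083 and -0.049.

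Of 79 cytosolic ribosomal protein genes, 0 were called higher and 33 lower (41.8%, beside 23.5% of all genes tested), with a median of -0.13. RPL17 fell by 0.60 (SE 0.134; limma adjusted p = 0.0045), from only 9.97 ± 1.09 to 6.63 ± 1.27 RPM (SD, n = 3). Whether this entry measures all RPL17 RNA was not tested. RPS21 fell by 0.41, from 56.2 ± 2.85 to 42.5 ± 4.53 RPM (limma adjusted p = 0.0015). The number called higher was 1 with library totals, 2 with quantile normalization and 1 without knockdown replicate 1. Many of these genes have pseudogenes that can share their reads. Over all 7 lists, of 183 genes tested 9 (4.9%) were called higher and 68 (37.2%) lower, beside 17.5% and 23.5% of all genes tested.

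**Figure D4:**
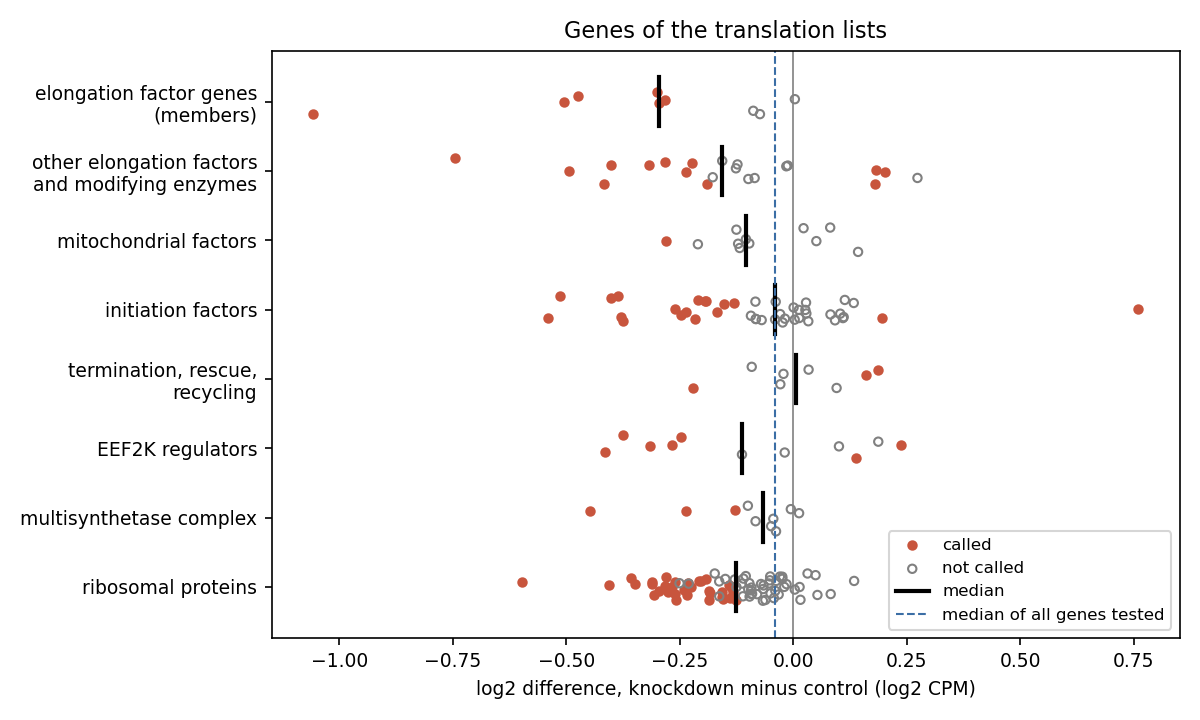
Log2 difference, knockdown minus control, of each tested gene of the elongation factors and of the 7 lists (filled red: called in limma; open grey: not called; vertical position within a band has no meaning). Black bars are medians and the dashed blue line is the median of all 19048 genes tested, -0.039; the ribosomal protein median is -0.13 and that of the initiation factors is -0.040.

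The genes whose log2 values followed EEF1A1 most closely over the 6 libraries were sought among genes averaging 50 or more normalized reads, leaving out the elongation factors and their copies. They were FABP5 (Pearson r 0.9995), SLC25A5 (0.9994), HARS2 (0.9992), PRSS3 (0.9991) and CTB-63M22.1 (now RPLP0P9, 0.999). The 6 points form 2 groups, controls and knockdowns, and genes that differ between the groups reach a high r through that alone, so the order is a description without a test. FABP5 went from 25.2 ± 1.86 to 12.1 ± 0.565 RPM and SLC25A5 from 157 ± 5.90 to 106.9 ± 1.59 RPM (SD, n = 3).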

How the data were processed

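PolyA RNA from 6 libraries (3 control, 3 knockdown) was measured by single-end sequencing. Bowtie2, featureCounts and hg19 are named in the submitters' processing notes; their versions and the strand and multi-mapping settings are not given in the sources used here. The authors deposited log2 CPM values with an offset of 0.5 reads, a form worked out from the values: undoing it gave whole reads for 100% of values (within 1e-06 reads). Effective library sizes were the totals times 0.9885 to 1.0087. RPM here are recovered reads on the same scale, without the offset. The deposited log2 values were tested with limma 3.58.1 (R 4.3.3; lmFit, eBayes with trend, two-sided), group as the sole term, for 19048 genes with a mean of at least 10 normalized reads, with Benjamini-Hochberg adjustment at 0.05. For genes with few reads the offset makes log2 differences smaller than they were. Counting precision depends on depth, and intervals from 3 reads cover counting error only.

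Levels per kilobase, 50-base windows and coding sequences came from GENCODE 29 (GRCh38), matched by gene ID. Start sites came from RefSeq (GRCh38.p14). Coordinates of genes are those of the table (hg19), and none were converted. Pseudogenes were found by their name in the table (56) or by their current symbol (33); 1 on the Y chromosome was not used. EEF1AKMT4 and PECAM1 are not analysed here.

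The elongation factor genes and the 7 lists were chosen with earlier results of these data known. Genes named beyond these were, by rule, the 5 EEF1A1 copies and the 1 copy of each other gene with the highest RPM, the 2 largest rises and 2 largest falls called in each list with separate groups, the 5 genes most correlated with EEF1A1, and the targeted lncRNA, of which 1 gene is not reported here; TPT1-AS1, RP11-290D2.6, MIR3654, TIGD5, AIMP1, AIMP2, EEF1A1P1 and EEF1A1P17 were added after their values were seen. The fit was checked on simulated data. In 18 alternative fits, the filter, offset, scaling, variance model, replicate block, single libraries left out and copies summed were varied.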

Additional observations from a re-analysis of the deposited data

How the results depend on the processing

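EEF1A1, EEF1A2, EEF1B2, EEF1E1, EEF2 and TUFM were called lower in all 18 alternative fits, and EEF1D, EEF2K and TPT1 in none of them. EEF1A1 ranged from -0.53 to -0.43, EEF2 from -0.33 to -0.23 and EEF1A2 from -1.24 (without knockdown replicate 1) to -0.27 (5 RPM added). TPT1 changed sign, always uncalled: -0.0234 with its copies summed and -0.0158 to 0.0361 with 1 library left out. With an absolute log2 difference of at least 1 also required, 322 genes were called higher and 239 lower, 1 of the elongation factor genes lower, and 0 list genes in either direction. The number of list genes called higher (9) was 14 with library totals, 18 with quantile normalization and 5 with untrended eBayes, and ran from 5 to 9 over the fits that leave out 1 library. The cause of these shifts was not tested. Fits of recovered reads with voom called 3365 genes higher and 4514 lower. With replicate number as a block, 2743 genes were called higher and 3711 lower, and the same 6 elongation factor genes were called. Deviations of same-numbered libraries from their group means had correlations of -0.149, -0.183 and 0.0655. With 3 libraries in a group, these cannot show whether same-numbered libraries were prepared together. Of the tested EEF1A1 copies, 23 to 25 were called lower under each of these fits in which copies were kept apart. In controls, with copies summed (chosen, like the RefSeq-matched length, after seeing the data), EEF1A1 ranked 1 by level per kilobase, EEF2 2, EEF1G 8, EEF2K 9 and EEF1A2 10. In knockdowns EEF1G ranked 7 and EEF1E1 8, with overlap. EEF1G itself held 0.449% of its summed reads in controls and 0.289% in knockdowns (means), so its ranks are those of its copies and do not measure EEF1G. In controls without length, TUFM ranked 4, EEF1B2 5, EEF2K 7 and EEF1E1 8, and EEF2 overlapped EEF1A1 and TUFM overlapped EEF1B2. Reads that match several copies and the low depth of EEF1A2 and EEF1G limit what these libraries can show.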
